A study of Mus musculus with 2 samples.

Results

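Cells limit damage from reactive oxygen with a relay of enzymes. Superoxide dismutases turn superoxide into hydrogen peroxide, and catalase, glutathione peroxidases and peroxiredoxins reduce the peroxide. The glutathione and thioredoxin systems, fed by NADPH, restore those enzymes, while NRF2 (encoded by Nfe2l2), held in check by KEAP1, switches on many of the genes. Haematopoietic stem cells (HSCs), the cells that renew all blood lineages, are known to depend on low levels of reactive oxygen. The 41 genes described here cover this relay and were taken by name: all 41 were found, among 28009 genes with linked transcripts and 37820 genes of the gene table.

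The study set gene expression of fetal against adult mouse HSCs by sequencing polyadenylated RNA. Adult HSCs were sorted from bone marrow of B6129SF1 mice 6 to 8 weeks old, and the labels hold 2 such samples, replicates 1 and 2. Fetal HSCs came from liver at embryonic day 14.5, per the protocol in the labels, and no sample labelled as fetal was analysed here, so that header FL is the only link of a column to these cells. The labels name neither the fetal strain, nor the surface markers of the sort, nor how many mice went into a library, and their molecule field reads genomic DNA where the protocol is one for RNA. Levels are the authors' FPKM (fragments per kilobase of transcript, scaled to the number of mapped fragments), which allow genes to be compared per length, and each table, of transcripts or of genes, has 1 column headed FL and 1 headed BM. No treatment or genotype beyond the strain is given.

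Each column holds 1 value per feature, so no difference below could be set against a spread between libraries, no test was possible, and the depth is unknown. In the decimals, 34.5% of the non-zero FL values and 34.6% of the BM values of the transcript table, and 42.8% of gene table BM values, carried the extra final 5 that a mean of 2 six-digit numbers leaves. The FL column of the gene table had it in 0.416% of values and repeating decimals in 66.6%. Gene table BM follows transcript table FL: these columns lay within 1.5 times of each other for 36 of 41 members (87.8%) and for 88.2% of 12058 expressed genes, after a median shift of -0.07 (log2). The headers of the tables thus conflict, and which libraries each column averages is not known. If the headers of the transcript table are the wrong ones, every direction given for it below turns round. FL and BM therefore stand for column headers throughout, not for verified sources of cells. The transcript table was used for BM against FL as headed, with gene table BM as a check on the values of FL. The HSC list, which includes the receptor gene Kit, had all 12 genes above 1 FPKM in each column of the transcript table. The FL column of the gene table stood apart. Its 8 endothelial markers summed to 2716 FPKM against 289 FPKM in BM of that table and 272 and 125 FPKM in FL and BM of the transcript table.

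Sequence features that the choice of genes did not use are shown first. The core of the antioxidant response element, the site bound by NRF2 with a small MAF protein, was searched as TGACNNNGC on both strands of RefSeq promoters (build GRCm38.p6, 250 bases before to 50 after a start site). Promoters were at hand for 36 members. A match lay in at least 1 promoter of 9 members (25.0%), against 14.0% of 27025 genes with a promoter and 17.1% of 9265 expressed ones. These shares rise with the number of promoters per gene, which was not evened out. The 36 members had 51 promoters, 9 of which held a match, and the 27025 genes had 32851, of which 12.4% held one. The 9 windows are given below with the match in capitals, read along the strand named, and with 10 bases on either side.
G6pdx, chrX:74428919-74428947, plus strand: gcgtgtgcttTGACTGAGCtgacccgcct
Gclm, chr3:122245413-122245441, minus strand: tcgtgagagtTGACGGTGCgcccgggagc
Gstm5, chr3:107895802-107895830, plus strand: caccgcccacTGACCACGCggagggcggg
Mgst1, chr6:138140461-138140489, minus strand: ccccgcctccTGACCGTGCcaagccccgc
Nfe2l2, chr2:75704885-75704913, minus strand: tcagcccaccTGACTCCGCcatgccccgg
Prdx1, chr4:116685456-116685484, minus strand: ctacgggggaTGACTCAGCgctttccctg
Sod1, chr16:90220696-90220724, minus strand: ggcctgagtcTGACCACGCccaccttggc
Srxn1, chr2:152105542-152105570, minus strand: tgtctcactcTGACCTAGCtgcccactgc
Txnrd1, chr10:82859104-82859132, minus strand: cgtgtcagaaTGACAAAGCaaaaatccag
Of these, the Prdx1 match alone also held TGACTCA, the letters of an AP-1 site. These are matches of letters and not shown sites of binding, and bases outside the stated window were not searched.

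The 250 bases before the start site are printed for 3 genes: Gclm and Prdx1, whose single match falls there (capitals), and Gstt1, which had the largest BM over FL ratio among the members and no match.
Gclm, chr3:122245307-122245556, plus strand: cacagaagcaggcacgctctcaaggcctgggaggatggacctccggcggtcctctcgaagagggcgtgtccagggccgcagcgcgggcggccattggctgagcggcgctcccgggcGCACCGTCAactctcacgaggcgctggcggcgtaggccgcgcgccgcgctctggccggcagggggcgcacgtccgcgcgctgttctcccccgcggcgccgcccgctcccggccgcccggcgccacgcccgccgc
Prdx1, chr4:116685349-116685598, plus strand: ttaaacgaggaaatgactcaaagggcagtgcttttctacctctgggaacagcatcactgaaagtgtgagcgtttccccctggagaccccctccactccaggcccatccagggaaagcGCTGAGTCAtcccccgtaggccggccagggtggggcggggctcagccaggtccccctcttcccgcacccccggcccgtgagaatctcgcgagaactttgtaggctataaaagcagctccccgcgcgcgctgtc
Gstt1, chr10:75797732-75797981, minus strand: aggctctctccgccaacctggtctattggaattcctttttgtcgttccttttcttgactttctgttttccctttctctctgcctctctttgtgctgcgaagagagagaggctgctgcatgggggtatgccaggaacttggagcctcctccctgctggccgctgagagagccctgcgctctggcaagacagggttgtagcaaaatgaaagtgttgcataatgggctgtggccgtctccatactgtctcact

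A second feature is the recoded TGA codon, which inserts selenocysteine, the reactive residue of several peroxidases and thioredoxin reductases, in place of a stop. The annotation (GENCODE M21) marks it in 4 members, among 23 genes in all with linked transcripts. The codon, in capitals, is shown in its coding context for the most abundant marked transcript of each.
Gpx1, codon 47 of 201: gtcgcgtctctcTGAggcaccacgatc
Gpx4, codon 73 of 197: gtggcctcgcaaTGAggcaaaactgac
Txnrd1, codon 498 of 499: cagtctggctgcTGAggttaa
Txnrd2, codon 526 of 527: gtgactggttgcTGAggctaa
In both reductases it is the last codon but 1 before the stop, and in the peroxidases it lies within the coding region.

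The third is the loop of the iron-responsive element in the 5′ UTR of the ferritin genes, where iron-regulatory proteins bind and hold back translation, so that ferritin mRNA and protein need not move together. CAGTG followed by A, C or T was searched on the transcript strand before the start codon. It was found at base 99 of Fth1-201 and base 90 of Ftl1-201, and the same letters occur in 13.0% of 21039 linked transcripts when their leading 150 bases of 5′ UTR are searched. The 30-base windows, loop in capitals, are almost identical.
Fth1: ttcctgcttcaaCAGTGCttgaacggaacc
Ftl1: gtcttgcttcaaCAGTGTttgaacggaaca

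In the transcript table most of these genes were moderately lower in the column headed BM than in that headed FL. A relative log2 ratio was taken as log2((BM + 0.1)/(FL + 0.1)) minus its median (0.01) over genes that reached 1 FPKM in FL and in BM alike, a scale that understates differences of genes near 0.1 FPKM. Of the 41 members, 40 reached 1 FPKM in either column, and of these 30 had a ratio below 0 and 10 above it, with a median of -0.46 against 0.02 over all 12220 genes that reached it. At the 2-fold line 5 of 40 were lower (12.5%, background 8.82%) and 4 were higher (10%, background 13.3%), shares near those of all expressed genes. Of the 4 higher ones, Gpx7, Gstt1 and Srxn1 reached 1 FPKM in BM but not in FL, so they were counted as expressed through BM alone. Together the members held 6704 FPKM in FL and 4542 FPKM in BM, or 1.01% and 0.767% of each column. The gene table gave 1.04% in FL and 1.02% in BM. Just past the 2-fold line lay Prdx2 at -1.07 and Nqo1 at 1.11, and just short of it Txn2 at -0.90 and Gpx1 at -0.81. Marker lists moved between these columns too. Of the 12 HSC genes 9 had a ratio above 0, with a median of 0.64, and 3 were at least 2-fold higher in BM. Of 6 expressed hepatocyte genes 5 were at least 2-fold lower (sum over all 8 genes 41.6 FPKM in FL and 13.3 in BM, with Serpina1a and Fgb at 0 in BM), as were 5 of 8 endothelial genes. The part of these lists in the members' values was not tested. Fewer cells of a type and less RNA per cell cannot be told apart in such bulk values.

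**Figure D1:**
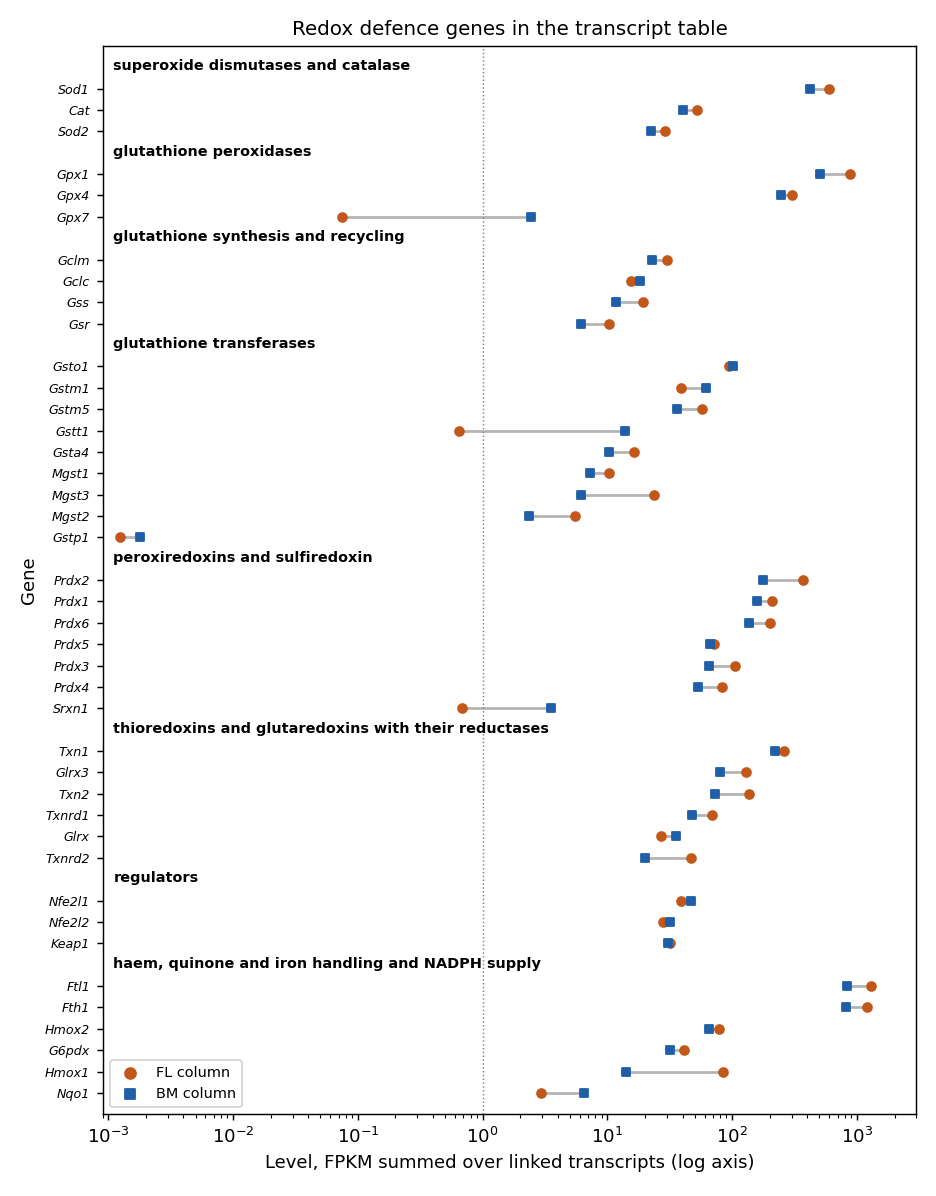
Levels of the 41 members in the transcript table, in FPKM summed over linked transcripts on a log axis, grouped by role; circles stand for the FL column and squares for BM, 1 value each. The dotted line marks 1 FPKM. Most squares lie a little to the left of their circles, while Gpx7, Gstt1 and Srxn1 have FL values under 1 FPKM.

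The ratio depended on how abundant a gene was, for members and for genes at large. Among genes with a mean of 100 to 500 FPKM the median was -0.40 over all 719 genes and -0.56 over 7 members, and 78.7% of the genes and all 7 members were below 0. At 20 to 100 FPKM it was -0.13 over 3733 genes and -0.38 over 18 members, 13 of which were below 0 (all genes 60.4%). Above 500 FPKM it was -0.20 over 137 genes and -0.61 over 4 members. At 5 to 20 FPKM the 7 members had a median of -0.68 where 4392 genes had 0.10. Below 5 FPKM the 4 members had a median of 1.65 and 3239 genes 0.41, and 1 of the 4 was below 0. Among these 4, Gpx7 and Srxn1 reached 1 FPKM in BM but not in FL. Their FL sums also lay outside 1.5 times the gene table BM value, so this median rests partly on uncertain FL values. From 20 FPKM upwards most genes thus shared the members' direction, while at 5 to 20 FPKM 5 of 7 members but 42.4% of genes were below 0. Among these 7, Gsr was below 0 on an FL sum of 10.4 FPKM where the gene table lists 59.4 FPKM under BM. Whether the distance between members and other genes exceeds the spread of libraries was not tested.

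**Figure D2:**
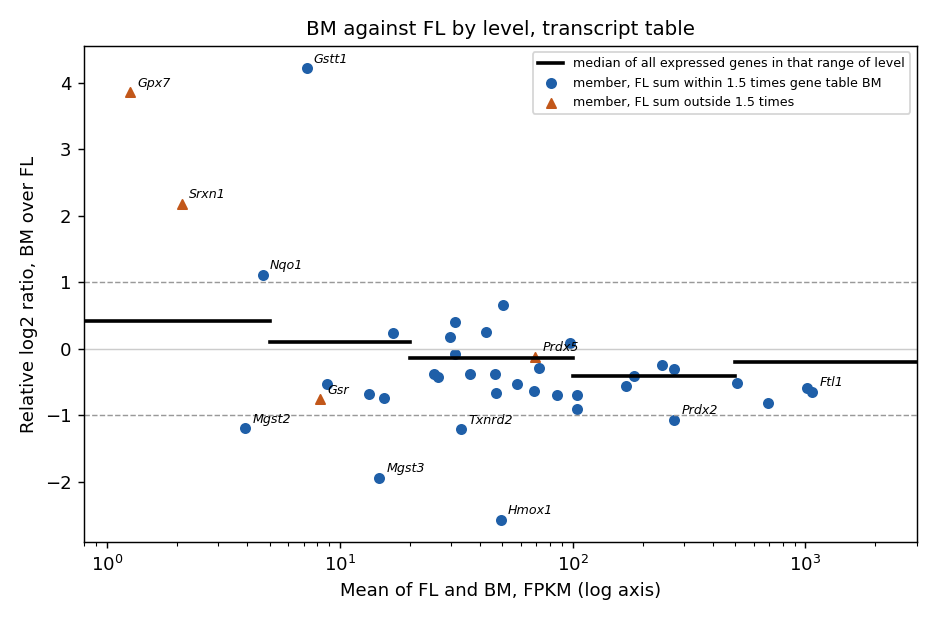
Relative log2 ratio of BM over FL in the transcript table against the mean level in FPKM (log axis) for the 40 members at 1 FPKM or more. Black bars give the median of all expressed genes in each range of level, dashed lines the 2-fold limits, and triangles members whose FL sum departs by over 1.5 times from gene table BM. The bars fall from 0.41 in the lowest range to -0.40 at 100 to 500 FPKM, and 2 of the 4 members above the upper line are triangles.

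The superoxide dismutases and catalase were within 2-fold between the columns. Sod1, the cytosolic superoxide dismutase, was at 596 FPKM in FL and 419.8 in BM (-0.51). Sod2, its mitochondrial counterpart, was at 28.8 and 22.2 FPKM (-0.38), and Cat, peroxisomal catalase, at 52.5 and 40.6 FPKM (-0.38). All 3 were thus lower in BM by a like ratio, and Sod1 was over 10 times as abundant as Sod2 in each column.

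Of the glutathione peroxidases, Gpx1, which reduces soluble peroxides and carries the recoded codon shown above, stood at 875 FPKM in FL and 501 in BM (-0.81). Gpx4, the phospholipid hydroperoxidase that guards membranes against ferroptosis, was at 301 and 246 FPKM (-0.30). Gpx1 was the third most abundant member in both columns. Gpx7, a peroxidase of the endoplasmic reticulum, was listed at 0.0741 FPKM in FL and 2.44 in BM (3.86, but 1.67 with a pseudocount of 1 FPKM and 4.86 with 0.01 FPKM). The FL value of Gpx7 did not match the check: under BM the gene table lists 2.24 FPKM, next to the 2.44 FPKM of transcript BM and far from transcript FL.

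Genes that make and recycle glutathione were all within 2-fold. Gclc, the catalytic subunit of the rate-limiting ligase, was at 15.6 FPKM in FL and 18.4 in BM (0.23), and its modifier subunit Gclm at 30.2 and 22.7 FPKM (-0.42). Glutathione synthetase, Gss, was at 19.4 and 11.7 FPKM (-0.73). The summed values of the reductase gene Gsr, 10.4 and 6.11 FPKM, fell far short of the 59.4 FPKM that the gene table lists under BM, so its ratio of -0.76 (-1.25 for leading transcripts alone) covers a small part of that level. The subunits of the ligase lay on either side of 0, and Gclc alone of the 4 genes was above it.

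Glutathione transferases, which couple glutathione to reactive compounds, were the most varied group: of 9 members 8 were expressed, 1 was higher and 2 were lower. Gstt1 was at 0.644 FPKM in FL and 13.8 in BM (4.22, 18.6-fold, and 3.16 with a pseudocount of 1 FPKM), and the gene table had 0.843 and 0.675 FPKM under FL and BM. A level above 1 FPKM was thus seen for Gstt1 in 1 of the 4 columns only, transcript BM. Mgst3, a membrane-bound transferase, went the other way, from 23.5 to 6.10 FPKM (-1.94), as did the related Mgst2, from 5.52 to 2.36 FPKM (-1.20, -0.96 with a pseudocount of 1 FPKM). Mgst1 was at 10.4 and 7.22 FPKM (-0.52). The cytosolic members Gsto1 (94.6 and 101 FPKM), Gstm1 (38.9 and 62.1), Gstm5 (57.7 and 36.4) and Gsta4 (16.4 and 10.3) were within 2-fold, with Gstm1 and Gstm5, both of 1 gene cluster on chromosome 3, at 0.67 and -0.67.

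Gstp1 could not be compared. It was listed at 0.00123 and 0.00178 FPKM in the transcript table and at 102 and 131 FPKM in the gene table, under FL and BM. Its near-identical copy Gstp2 showed the reverse, with 21.5 and 14.3 FPKM in the transcript table and 3.85 and 1.63 FPKM in the gene table. The Gstp2 values of the transcript table were still far below the Gstp1 values of the gene table. A different split of shared reads and a transcript that was not linked could not be told apart, so separate values are uncertain.

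Every peroxiredoxin was lower in BM, and Prdx2 alone passed the 2-fold line. Prdx2, an abundant peroxidase of red cells and their precursors, was at 369.6 FPKM in FL and 177 in BM (-1.07), and its ratio was -0.95 when centred on genes at 10 FPKM or more. Prdx1 (208 and 158 FPKM, -0.41) and Prdx6 (202 and 137 FPKM, -0.56) are mostly cytosolic. Mitochondrial Prdx3 was at 106 and 65.6 FPKM (-0.69), Prdx4 of the secretory pathway at 82.8 and 53.5 FPKM (-0.64) and Prdx5 at 71.8 and 66.3 FPKM (-0.12). The order of the 6 by level was the same in both columns except that Prdx5 passed Prdx3 and Prdx4 in BM, and did so on an FL sum of 71.8 FPKM where the gene table lists 129.8. Srxn1, sulfiredoxin, which repairs over-oxidised peroxiredoxins, was at 0.688 FPKM in FL and 3.50 in BM (2.19, and 1.41 with a pseudocount of 1 FPKM). Most of its BM sum was the processed Srxn1-203, at 0.0557 and 2.15 FPKM (61.6% of BM), while the coding Srxn1-201 was at 0.458 and 1.22 FPKM. Srxn1-203, the leading transcript in BM, gave a ratio of 3.89 on its own. As for Gpx7, its value of 3.54 FPKM under BM in the gene table matched transcript BM and not transcript FL. Without members outside 1.5 times the check, 2 rather than 4 members were higher, Gstt1 and Nqo1, and the 5 lower ones remained.

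In the thioredoxin system the mitochondrial pair was further apart between columns than the cytosolic pair. Mitochondrial Txn2 was at 136 FPKM in FL and 72.9 in BM (-0.90), and its reductase Txnrd2 at 46.5 and 20.2 FPKM (-1.21). Cytosolic Txn1 was at 262 and 221 FPKM (-0.25) and its reductase Txnrd1 at 68.4 and 47.5 FPKM (-0.53). The leading Txnrd2 transcript alone, Txnrd2-203, gave -0.70, so passing the 2-fold line rested on its minor transcripts. Glrx, glutaredoxin, which uses glutathione to reduce protein thiols, was at 26.8 and 35.5 FPKM (0.40), and Glrx3, involved in iron-sulphur and haem maturation, at 129.6 and 80.4 FPKM (-0.70). The 4 selenocysteine members, Gpx1, Gpx4, Txnrd1 and Txnrd2, were all below 0. Of all 20 expressed genes with a recoded codon, 12 were below 0, with a median of -0.29.

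The regulators were nearly level. Nfe2l2 was at 27.9 FPKM in FL and 31.8 in BM (0.18), its inhibitor Keap1 at 31.9 and 30.5 FPKM (-0.07, 0.05 when centred on genes at 10 FPKM or more), and Nfe2l1, the related factor that also drives proteasome genes, at 38.8 and 46.4 FPKM (0.25). These 3 mRNAs differed by at most 1.19-fold between the columns, while NRF2 activity is known to be set largely by protein stability. The 9 members with a promoter match had ratios from -0.67 (Gstm5) to 2.19 (Srxn1), with a median of -0.42. The 26 other expressed members with a promoter ran from -1.94 to 4.22, with a median of -0.38. Sites outside the searched window were not counted, so this split does not separate genes that NRF2 controls from others. Nqo1, a quinone reductase, was at 2.91 and 6.44 FPKM (1.11, 0.92 with a pseudocount of 1 FPKM).

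Hmox1, the inducible haem oxygenase, had the lowest ratio of all members, with 84.0 FPKM in FL and 14.1 in BM (-2.57, 5.94-fold). The gene table had it at 108 FPKM in FL and 111 in BM, so 14.1 FPKM was the lowest of the 4 columns. Hmox2, the constitutive form, was at 78.6 and 64.8 FPKM (-0.29). Macrophages, which recycle haem from red cells, are known for high Hmox1. All 10 macrophage markers were at least 2-fold lower in BM, their sum being 270.2 FPKM in FL and 6.97 in BM, with Timd4 at 0 in BM. Of 12 erythroid markers 11 were lower, with a sum of 1099.6 and 521 FPKM (Car2, the other, took 469 FPKM of the latter) and Alas2 at 0 in BM. The part of either list in the values of Hmox1, Prdx2 or any other member was not tested.

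Ferritin was the most abundant component, 37.5% of the members' FPKM in FL and 36.3% in BM. Ftl1, the light chain, was at 1300.2 FPKM in FL and 836 in BM (-0.64), and Fth1, the heavy chain with ferroxidase activity, at 1212 and 811 FPKM (-0.58). The chains, which carry the loops shown above, thus lay lower in BM by nearly the same ratio. In the gene table they diverged: Fth1 was at 981 FPKM in FL and 1273 in BM, and Ftl1 at 1742 and 1196. The Ftl1 pseudogene copy Ftl1-ps1 was listed there at 27.1 and 23.5 FPKM, so reads shared with copies make ferritin values less certain. G6pdx, the first enzyme of the pentose phosphate pathway and a main source of NADPH, was at 40.8 and 31.5 FPKM (-0.38).

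In the gene table the members ran in the opposite direction, and here the FL column is the one in which endothelial markers stand high. Of 40 expressed members 31 had a relative ratio above 0, with a median of 0.26 (all genes -0.07), and 5 of the 31 (Sod1, Gstp1, Txnrd1, Glrx3 and Fth1) were below 0 with upper-quartile scaling. The ratio in this table rose with level, from a median of -0.46 over genes below 5 FPKM to 0.26 above 500 FPKM, where 4 members had 0.10. At 100 to 500 FPKM it was 0.16 over 858 genes and 0.19 over 10 members. At 20 to 100 FPKM it was 0.07 over 4070 genes and 0.71 over 19 members. At the 2-fold line 5 members were higher in BM (12.5%, background 12.3%) and 2 lower (5%, background 23.6%). The higher ones were Txnrd2 (13.4 FPKM in FL and 46.8 in BM), Mgst2 (2.17 and 5.90), Gss (11.7 and 29.7), Gstm1 (15.8 and 40.0) and Sod2 (11.9 and 29.97), the ratio of Mgst2 being 0.91 with a pseudocount of 1 FPKM. Scaling decided these counts: without taking out the median shift of 0.24 there were 11 higher and 1 lower, and with upper-quartile scaling 2 higher (Txnrd2 and Mgst2) and 3 lower, Srxn1 being the added one. The lower members were Gpx7, at 22.1 and 2.24 FPKM (-3.49), and Prdx1, at 387 and 215 FPKM (-1.09, -0.85 without centring). Since gene table BM and transcript table FL hold closely matching values on opposite sides of the ratios, opposite signs are partly built in, and no member was past 2-fold in the same direction in both. All 8 endothelial and 7 stromal markers were lower in BM of this table, the stromal sum being 783 FPKM in FL and 17.4 in BM, with Dcn at 0 in BM. Their part in the Gpx7 and Prdx1 values was not tested.

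**Figure D3:**
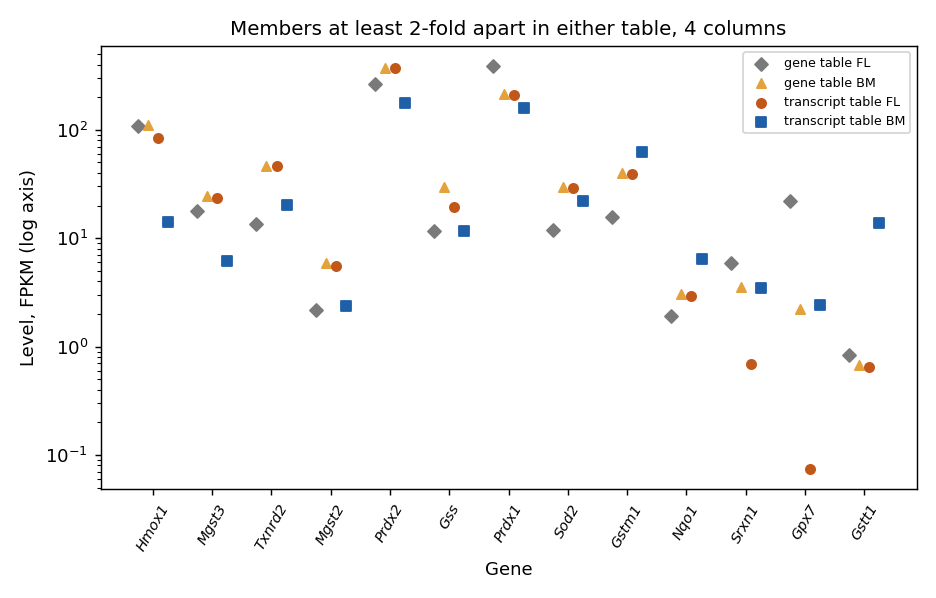
Levels in FPKM (log axis) of the 13 members at least 2-fold apart in either table, in the FL and BM columns of both tables, 1 point per column. The gene table BM points lie close to the transcript table FL points except for Srxn1, Gpx7 and, less far apart, Gss, and Gstt1 is above 1 FPKM in transcript BM alone.

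Which transcript of a gene led was mostly the same in both columns. Of the members, 16 had a single linked transcript, and 22 others had 5 FPKM or more in both columns. In 13 of the 22 the same transcript took over 80% of the gene's FPKM in FL and in BM, among them Gpx4-202, Nfe2l2-201 and Hmox1-201. Among these 22 the leading transcript differed in Gsr alone, where the coding Gsr-201 took 61.4% in FL and the non-coding Gsr-203 46.3% in BM. Since the Gsr sums are incomplete, so are these shares. The share of a transcript moved by 10 percentage points or more in 5 genes. For Gclm, the coding Gclm-201 took 57.8% in FL and 73.7% in BM, at 17.5 and 16.7 FPKM, and the processed Gclm-202 went from 12.7 to 5.89 FPKM. The coding transcript of this ligase subunit was therefore almost level between columns. In Prdx6 the leading coding transcript was not level, with Prdx6-202 at 99.3 and 78.3 FPKM, and the processed Prdx6-207 was further apart, at 86.2 and 39.7 FPKM. Prdx6-201, also coding, was at 13.9 and 15.5 FPKM. For Cat, the minor Cat-202 took 12.9% in FL and 1.08% in BM. These splits are estimates from short reads and have no error here.

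**Figure D4:**
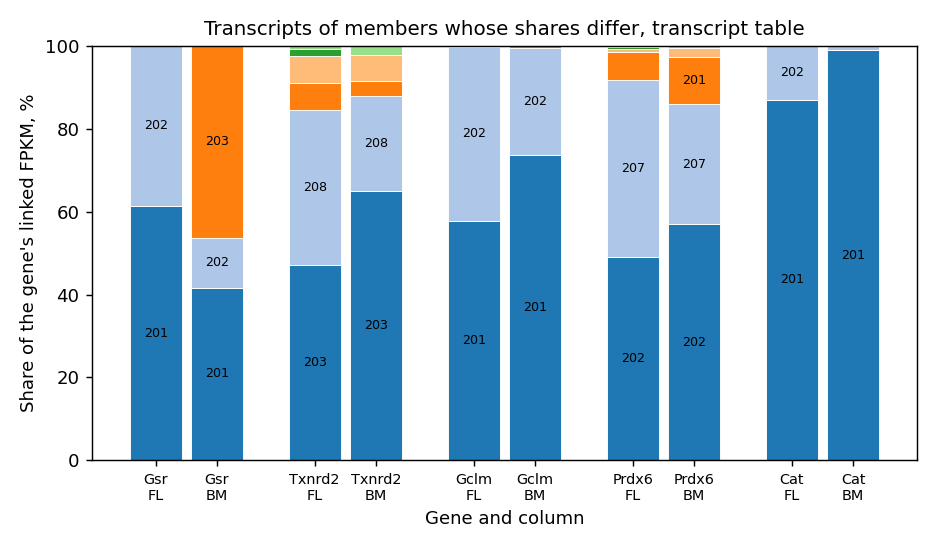
Share of each linked transcript in the gene's summed FPKM (percent, stacked bars) in FL and BM of the transcript table, for the 5 members with a shift of 10 points or more; numbers in the bars are transcript numbers of the annotation. Gsr-203 is close to 0 in FL and takes 46.3% in BM, and Gclm-201 grows from 57.8% to 73.7%.

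The wider redox lists held 77 genes, 69 of them expressed, of which 8 were higher (11.6%) and 12 lower (17.4%) in BM of the transcript table, with a median of -0.08 (background 13.3% and 8.82%, median of all expressed genes 0.02). Of the higher genes, Gstm2, Gpx8 and Me1 reached 1 FPKM in BM but not in FL. Of the lower ones, Msrb3, Cbs, Cth and Cybb reached it in FL but not in BM. These genes were thus counted as expressed through 1 column alone. Among the other antioxidant and thiol enzymes, 7 of 36 were higher and 6 lower. The most abundant were within 2-fold, Park7, a redox-sensitive chaperone, at 467 and 336 FPKM and the selenoprotein gene Selenow at 389 and 312 FPKM. The metallothioneins Mt1 and Mt2, small thiol-rich metal-binding proteins, had low ratios, Mt1 with 295 and 35.0 FPKM (-3.08) and Mt2 with 165 and 5.39 FPKM (-4.91). Blvrb, biliverdin reductase B, which is abundant in red cells, was at 125 and 27.4 FPKM (-2.19). Glrx5, needed for iron-sulphur clusters and haem synthesis, was at 239 and 81.3 FPKM (-1.56). Secreted Gpx3 (10.6 and 1.12 FPKM) and the methionine sulphoxide reductase Msrb3 (6.53 and 0.993 FPKM) were the remaining lower genes. Mt1, Mt2, Blvrb and Glrx5 were lower in the same column as most erythroid, macrophage, neutrophil and monocyte, hepatocyte and endothelial markers. The part of these lists was again not tested.

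Higher in BM were Gstm2 (0.888 and 6.78 FPKM), Gstt3 (3.35 and 12.3), Gstt2 (6.22 and 12.7), Pon3 (4.74 and 13.2), Gpx8 (0.554 and 1.26), Sesn3, a stress-induced regulator of growth signalling (4.25 and 9.76), and Txnip, the inhibitor of thioredoxin (84.4 and 227). The Txnip ratio of 1.42 rests on an FL sum that the check did not match, since the gene table lists 161 FPKM under BM and 116 under FL.

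NADPH and cysteine supply had 1 of 15 genes higher and 4 lower, with a median of -0.58. The lower ones were the mitochondrial folate enzymes Mthfd2 (29.4 and 9.10 FPKM) and Shmt2 (138 and 66.4), and, at low levels, Cbs and Cth of transsulphuration (1.43 and 0.559, 1.05 and 0.444). The higher one was malic enzyme Me1, at 0.398 and 1.22 FPKM. The most abundant were Tkt (249 and 167 FPKM) and Taldo1 (215 and 130.02 FPKM), transketolase and transaldolase of the pentose phosphate pathway, both within 2-fold and below 0 like G6pdx. None of 11 partners of NRF2 and KEAP1 passed 2-fold (median 0.12). The 2 most abundant by summed transcripts were Nfe2, a related factor of the erythroid and megakaryocyte lineages (131 and 214 FPKM, 0.70), and Sqstm1, an autophagy receptor that binds KEAP1 (69.7 and 67.3 FPKM, -0.06). Rbx1, of the ligase that KEAP1 serves, had a transcript sum of 8.66 FPKM in FL where the gene table lists 126 FPKM under BM, so its place in this order is uncertain. Of 7 megakaryocyte markers 5 were higher in BM, their sum being 133 and 785 FPKM, while 11 of 12 erythroid markers were lower. The part of either list in the Nfe2 value was not tested. Of 7 enzymes that make superoxide or peroxide 2 were lower, the phagocyte oxidase genes Cybb (1.84 and 0.00757 FPKM) and Ncf1 (11.2 and 4.61 FPKM). The small GTPases Rac1 (131 and 108 FPKM) and Rac2 (106 and 75.6 FPKM), which activate the oxidase, were within 2-fold. Macrophage and neutrophil markers, the latter lower for 8 of 10 with a sum of 612 and 206 FPKM, moved with these, and their part was not tested.

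**Figure D5:**
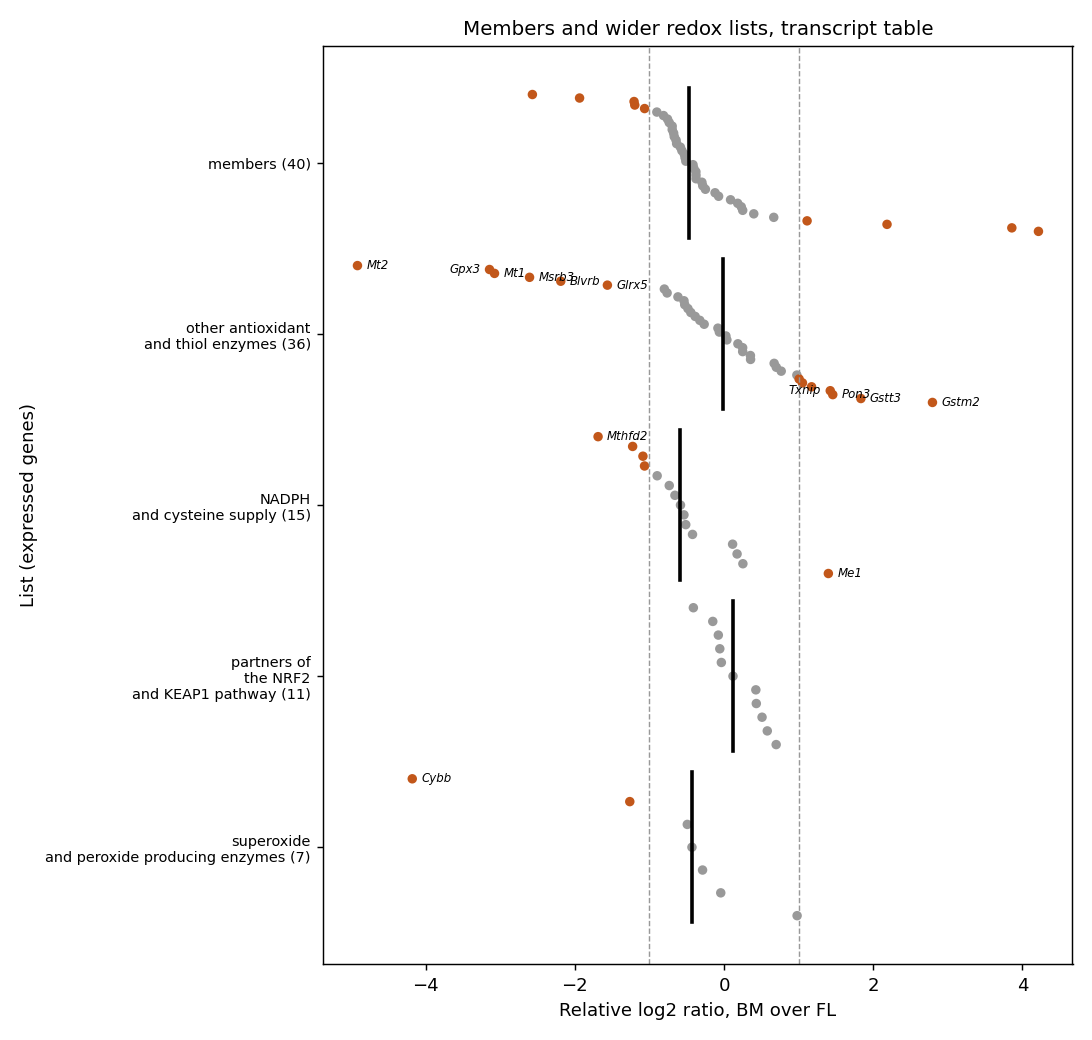
Relative log2 ratio of BM over FL in the transcript table for expressed members and wider redox genes, 1 point per gene, with the median of each list as a black bar and the 2-fold limits dashed. Points past 2-fold are coloured; the list medians run from -0.58 for NADPH and cysteine supply to 0.12 for partners of NRF2 and KEAP1, and Mt2 and Cybb lie furthest to the left.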

How the data were processed

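Sorted HSCs had been profiled by sequencing of polyadenylated RNA. The authors deposited FPKM for genes and for transcripts, in columns headed FL and BM, per the file headers. Per the submitters' processing notes, the tools were TopHat, Cufflinks, featureCounts (Subread) and edgeR, and the build mm9, with roles and versions unstated. Their annotation release was not given in the sources used here. Columns were read as means over libraries, from their decimals and headers, and BM was assigned to the adult group by its header alone. The depth behind the values is unknown, so no interval is given, and 1 value per column allows no test.

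Transcripts were linked to genes and symbols by identifier through GENCODE M21 (a later build): 76507 of 87641, the others carrying 10.4% of FL and 10.9% of BM FPKM. Transcript FPKM were summed per gene, so a sum is too low where a transcript was not linked. Ratios used a pseudocount of 0.1 FPKM, genes at 1 FPKM or more in either column, and a 2-fold line. Alternatives changed the pseudocount, centring, filter, fold, and use of sums. Promoters are from RefSeq, 1 to several per gene, for 36 members. Ratios were checked on simulated columns. The text names members, wider-list genes past 2-fold, the 2 highest of each wider list, copies of members, and leading or absent markers. Members and lists were chosen with earlier results of these data known, and some other genes named were chosen after their values were seen. Python 3.11.15, numpy 2.4.6, pandas 2.3.3 and matplotlib 3.10.9 were used.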

Additional observations from a re-analysis of the deposited data

How the results depend on the processing

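No paired analysis was possible because the columns carry no replicates, and no library could be left out. In the transcript table the counts of 4 higher and 5 lower members held within 1.5 times under most alternatives. The exceptions were 2 higher at 5 FPKM or more, 2 higher among members whose FL sum lay within 1.5 times of the gene table's BM value, and 15 lower at a fold of 1.5. The median of -0.46 was -0.44 with a pseudocount of 1 FPKM, -0.49 with upper-quartile scaling, -0.42 without a filter, -0.52 at 5 FPKM or more and also among members matching the gene table, -0.41 for leading transcripts alone, and -0.34 when centred on genes at 10 FPKM or more, an alternative chosen after seeing the data. In the gene table, 5 higher became 11 without centring, 2 with upper-quartile scaling and 13 at a fold of 1.5, and 2 lower became 1 without centring and 4 at a fold of 1.5. Its median of 0.26 was 0.25 with a pseudocount of 0.01 FPKM, without a filter and at 5 FPKM or more, 0.50 without centring, 0.12 with upper-quartile scaling and 0.20 when centred on genes at 10 FPKM or more. No median changed sign, and the cause of these shifts was not tested.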

Other observations

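Gstt1 lies in a cluster of theta-class glutathione transferase genes on chromosome 10, and its neighbours were looked up after its value had been seen. In the transcript table all 3 expressed genes of the class were at least 2-fold higher in BM: Gstt1 with 0.644 FPKM in FL and 13.8 in BM, Gstt3 next to it with 3.35 and 12.3 FPKM, and Gstt2 with 6.22 and 12.7 FPKM (1.01, at the 2-fold line). Of all expressed genes 13.3% were higher by that line, and Gstt1 reached 1 FPKM in BM alone. Gstt4, between Gstt1 and Gstt2, was listed at 0 in all 4 columns. The coding genes that flank the cluster were within 2-fold, Ddt with 24.4 and 26.7 FPKM and Mif with 805 and 445 FPKM, while Ggt5, a glutathione-cleaving enzyme gene further off on the Ddt side, was at 0.257 and 3.05 FPKM. Mmp11, further off on the Mif side, was at 0.438 and 1.39 FPKM (1.46), so it and Ggt5 reached 1 FPKM in BM alone. The other expressed coding genes looked up there, Ggt1, Cabin1, Derl3 and Smarcb1, were within 2-fold. In the gene table Gstt2 and Gstt3 stood at 4.81 and 1.92 FPKM under FL and 6.74 and 3.54 FPKM under BM, so the highest level of each of the 3 genes was in transcript BM.

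In the mu-class cluster on chromosome 3 the genes did not move as a block. Gstm2 was at 0.888 and 6.78 FPKM (2.79) beside Gstm1 at 38.9 and 62.1 FPKM (0.67) and Gstm4 at 11.6 and 8.50 FPKM (-0.45), and Gstm2 reached 20.7 FPKM in the FL column of the gene table. Similar sequences within each class make the separate values of such genes less certain.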
